A study of Mus musculus with 12 samples.

Results

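Wild type male and wild type female urogenital sinus were compared across autosomal genes, by RNA sequencing of mouse fetuses at E18.5. The libraries were chosen by their labels: 3 of wild type males and 3 of wild type females, 6 of the 12 libraries of the series. Tested were 13904 genes that reached 1 FPKM in 3 or more of the 12 libraries, and the 13423 that lie on neither the X nor the Y chromosome make up the comparison. FPKM is the number of fragments assigned to a gene per unit of its length and of library size. The labels give the genotype of all 6 as wild type. The other 6 libraries, 3 of each sex, had the genotype Inv(Itga6-nsi)d11lac. They are named mutant below. They enter the choice of genes tested, the scaling of the libraries, the shared estimate of the spread between libraries and a side-by-side reading at the end. Per the labels, the sinus was separated from the bladder, with the proximal urethra left on it. Female samples kept the vagina as well, so an organ that the male samples lacked lies on 1 side of every comparison. The strain was not given in the sources used here, and the labels do not say whether the 3 libraries of a group came from separate fetuses or pools, so p-values here weigh differences against a spread among libraries that may be technical.

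The urogenital sinus is the ventral chamber of the embryonic cloaca. In males, testosterone from the fetal testis is reduced to dihydrotestosterone in the sinus, acts on its mesenchyme, and leads the epithelium to bud into the prostate; the Wolffian ducts persist and the Müllerian ducts regress under anti-Müllerian hormone. In females the Müllerian ducts persist and, where they meet the sinus, contribute to the vagina.

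Each library was scaled by its median ratio to the other libraries. Scaled FPKM are used throughout, and log2 differences are males minus females on the scale of log2(scaled FPKM + 0.5), which understates genes with low values. A gene is said to be called where limma's moderated test gave a Benjamini-Hochberg adjusted p under 0.05 over all 13904 genes tested. For some lists, counts at an unadjusted p under 0.05 are given too. The share of all autosomal genes at that level is not given, so these counts have no background beside them. Relative depth, read from the size of the smallest FPKM steps with the deepest library at 1, was 0.812 to 1 in the 6 wild type libraries. Xist was at 8.76 to 10.5 in the females and at 0.00792 to 0.241 in the males, and Ddx3y, Eif2s3y, Kdm5d and Uty stood at 3.03 to 16.7 in the males and at most 0.0722 in the females, so every library matched its sex label. Markers of sinus epithelium and urothelium were present in all 6 (Trp63 at 4.47 to 7.45, Upk1b at 31.9 to 76.8). Svs4 of seminal vesicle, Cdx2 of intestine and Umod of kidney were listed at 0 in all 6. Male 3 stood apart from males 1 and 2 in red cell and hypoxia genes: the 6 tested red cell genes summed to 7150 in male 3 against 694 and 953, with 5472 to 12520 in the females, and the 14 hypoxia genes to 449.6 against 224 and 219.7, with 464 to 563 in the females.

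Of the 13423 autosomal genes, 255 were called higher in males (1.90%) and 163 lower (1.21%), together 3.11%. The libraries of the sexes did not overlap for any of these 418 genes, while 17.0% of all autosomal genes lay entirely higher in males and 14.5% entirely higher in females. The median log2 difference of all autosomal genes was 0.00488. The difference was at least 2-fold for 89 of the genes called higher and 61 of those called lower. For 19 of the former every female library lay under 0.5, and for 14 of the latter every male library did. Leaving out 1 library left 150 calls without female 1, 169 without female 2, 241 without female 3, 198 without male 1, 153 without male 2 and 594 without male 3. Of the 418, 130 were called in each of these 6 fits in which they passed the filter. Among those 130, Grem1 was tested in 3 of the 6 fits and Trhr in 5. Both passed the filter only through libraries of the sex where they were high, as a gene near 0 in the other sex must. Such calls depend in part on that selection. With the 6 wild type libraries alone, in which the spread was smaller than in mutant females (median SD of log2 values 0.098 and 0.117 in wild type females and males, 0.186 in mutant females), 665 genes (5.10%) were called higher and 501 (3.84%) lower, together 8.95%, among them 398 of the 418. Of the other genes among the 418, 6 were tested in that fit and not called, and the rest did not pass its filter.

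**Figure D1:**
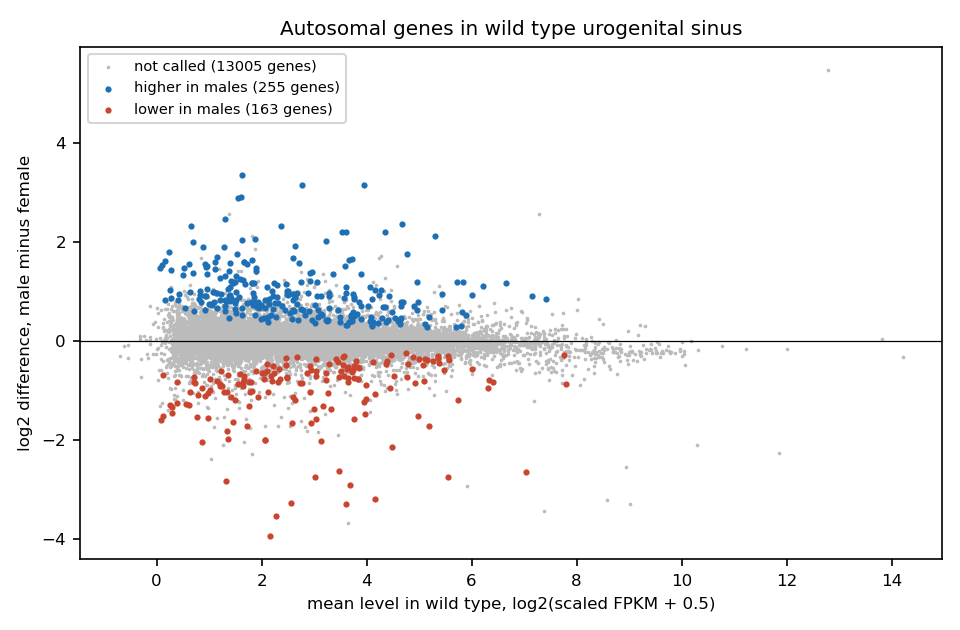
Log2 difference, males minus females, against the mean level in the 6 wild type libraries on the log2(scaled FPKM + 0.5) scale, 1 point per autosomal gene. The 255 genes called higher are blue and the 163 called lower are red; the grey point at the far right and top is the small nuclear RNA Rn7sk, which took 12.2% of the FPKM sum of male 1 and had listed values of 0 in females 1 to 3 and males 2 and 3.

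Androgen-related genes. Males had more RNA of several genes known to respond to androgen, among them the steroid receptor co-chaperone Fkbp5 and the Wnt inhibitor Wif1. Of the 22 tested members of an androgen response list, 6 were called higher and 0 lower, with a median of 0.31.

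Fkbp5, a co-chaperone of steroid receptors that androgen and glucocorticoid induce, was at 7.67, 7.95 and 8.19 in females and at 18.8, 19.7 and 24.2 in males (1.33, SE 0.10, limma adjusted p = 3.93e-05). Wif1, a secreted protein that binds and blocks Wnt ligands, was at 1.34, 1.07 and 1.29 in females and at 8.33, 8.08 and 7.96 in males (2.32, SE 0.17, limma adjusted p = 3.68e-05). In both genes the sexes lay well apart and the spread within a sex was small. The transcription factor Zbtb16 (0.339, 0.338 and 0.703 against 2.12, 1.72 and 3.16) was higher by 1.55, the lipocalin Apod by 1.31 and Errfi1, a feedback inhibitor of EGF receptor signalling, by 0.70. Apod lost its call without female 1, 2 or 3 or male 2 and Errfi1 kept its call only in the fit without female 3 (limma adjusted p of up to 0.0621 and 0.112), and the list held 4 to 6 calls higher over the 6 fits without 1 library. Other members did not pass: Tmprss2, a protease of prostate epithelium, had 0.74, and the kinase Sgk1 0.83. Inhba, a subunit of activin, lay at -1.37 (limma adjusted p = 0.0552, and 0.00205 with the 6 wild type libraries alone).

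Among 11 tested steroid enzymes, 1 was called higher and 0 lower. That was Sult1e1, the sulfotransferase that inactivates oestrogen, at 0.356, 0.177 and 0.107 in females and at 5.77, 5.26 and 3.62 in males (2.91, SE 0.25, limma adjusted p = 9.48e-05). Srd5a2, the 5-alpha-reductase that makes dihydrotestosterone, was at 4.4, 4.52 and 4.73 in females and at 12.2, 10.4 and 14.4 in males. The sexes did not overlap, yet the 4-group fit did not call it (1.34, 95% interval 0.467 to 2.21 before adjustment for the number of genes, limma adjusted p = 0.102), whereas the 6 wild type libraries alone did (adjusted p = 0.00119).

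Of 14 tested transcription factors of the prostate bud, 2 were called, both higher, and Gata3 is described here. Gata3, a zinc-finger factor of ductal epithelia, was at 6, 5.57 and 7.37 in females and 12.1, 11.5 and 12.6 in males (0.89, SE 0.11, limma adjusted p = 0.00149). Hoxb13, a homeobox gene of prostate epithelium, overlapped between the sexes at 0.741 to 2.12 and 1.41 to 1.85 (0.33, 95% interval -0.294 to 0.955). Hoxd13, a posterior Hox gene needed for prostate growth, was at 16.1 to 20.4 and 15.1 to 18.8 (-0.07, interval -0.51 to 0.368). The basal cell factor Trp63 also overlapped (0.26, interval -0.146 to 0.664). Foxa2, an endodermal factor, had -0.90 and was not called (limma adjusted p = 0.112).

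**Figure D2:**
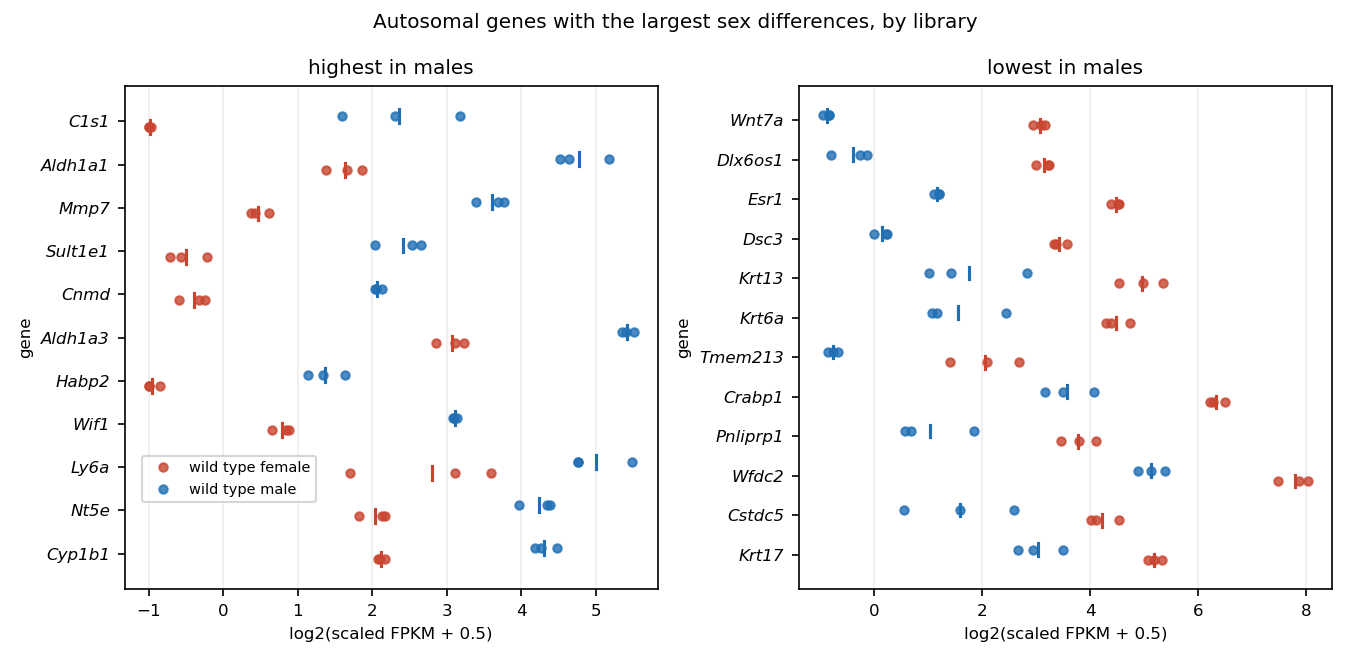
Levels in each of the 6 wild type libraries for named genes with the highest and lowest log2 differences, as log2(scaled FPKM + 0.5); dots are libraries and short bars are group means (n = 3). In every gene the red female dots and blue male dots do not overlap, which the choice of these genes required; male 3 is the high male dot of Krt13 and Krt6a.

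Hormone receptors and the Müllerian tract. Females had far more oestrogen receptor RNA. Esr1 (ENSMUSG00000019768, chromosome 10, 4561989 to 4955614 in mm39) was at 22.6, 22.3 and 20.4 in females and at 1.80, 1.80 and 1.65 in males. The libraries of each sex were nearly equal, and Esr1 had the smallest adjusted p of the named autosomal genes (-3.31, SE 0.14, limma adjusted p = 3.87e-07). Of 11 tested sex hormone and nuclear receptors, 0 were called higher and 3 lower: Esr1, the progesterone receptor Pgr and Amhr2, the receptor of anti-Müllerian hormone. Pgr was at 2.73, 2.41 and 2.13 in females and at 0.544, 0.254 and 0.724 in males (-1.56, SE 0.19, limma adjusted p = 0.00149). Amhr2 was at 3.05, 2.48 and 1.80 against 0.228, 0.204 and 0.167 (-2.05, SE 0.33, limma adjusted p = 0.00736). All 3 of these receptors were low in each male library.

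Of 17 tested genes of the Müllerian duct and vagina, 5 were called lower in males and 0 higher, at a median of -0.70; Amhr2 was one of the 5. Wnt7a, the Wnt ligand of Müllerian epithelium (ENSMUSG00000030093, chromosome 6, 91340963 to 91388345 in mm39), was at 8.50, 8.04 and 7.19 in females and at 0.0601, 0.0166 and 0.0612 in males. No male library held more than a trace of it, and its difference was the lowest of the called autosomal genes (-3.94, SE 0.26, limma adjusted p = 1.14e-05). The HMG-box factor Sox17 was at 13, 13 and 7.83 in females and 3.10, 3.07 and 3.17 in males (-1.67, limma adjusted p = 0.00308). It is also a gene of arterial endothelium. The endothelial marker Pecam1, at 29.2 to 35.5 and 28.4 to 32.6, overlapped between the sexes. Cdh5, at 21.6 to 24.25 and 17.4 to 21.4, lay wholly higher in females. Of 21 endothelial genes 4 lay wholly higher in females and 0 in males, against 14.5% and 17.0% of all autosomal genes. The homeobox gene Msx2 (-1.39) and Runx1 (-1.04) were the others called in the Müllerian list. Msx2 lost its call without female 1, female 2 or male 2 (limma adjusted p of up to 0.057), and Runx1 without female 2 (0.0501). Pax8, a paired-box factor of both genital ducts, was at 3.81, 4.70 and 4.58 in females and 1.72, 1.48 and 1.62 in males (-1.20, limma adjusted p = 0.0547, and 0.00146 with the 6 wild type libraries alone). Emx2, another duct factor, overlapped at 1.66 to 3.54 and 1.22 to 1.69 (-0.70, 95% interval -1.42 to 0.0151). The Hoxa9, Hoxa10, Hoxa11 and Hoxa13 genes, which pattern the tract along its length, had values of -0.10 to 0.17 and none was called. In whole tissue, fewer cells of a type and less RNA per cell cannot be told apart, and with the vagina present in female samples alone, sex and dissected organ cannot be told apart either.

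Other genes much lower in males included Wfdc2, a secreted whey-acidic-protein inhibitor of genital tract epithelium, at 235, 262 and 179 in females and 34.5, 29.2 and 41.1 in males (-2.67, SE 0.35, limma adjusted p = 0.00214). Tmem213, a small membrane protein gene, was at 3.74, 5.92 and 2.15 against 0.130, 0.0835 and 0.0512 (-2.83, limma adjusted p = 0.000335). The pancreatic-lipase-related gene Pnliprp1 was at 13.3, 10.5 and 16.8 against 0.982, 1.09 and 3.12 (-2.75, limma adjusted p = 0.00346). For all 3 genes the lowest female library lay above the highest male library, with the widest relative spread among females in Tmem213. Cstdc5, of a stefin family whose near-identical copies make its value uncertain, had -2.63 and lost its call without female 1, 2 or 3 or male 2 (limma adjusted p of up to 0.0616).

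The distal-less homeobox pair Dlx5 and Dlx6, known from the genital tubercle, were lower in males together with the RNA Dlx6os1. Dlx6os1 was at 8.90, 8.81 and 7.48 in females and 0.333, 0.0694 and 0.412 in males (-3.55, SE 0.28, limma adjusted p = 5.90e-05). It overlaps Dlx6 and lies next to Dlx5 on chromosome 6, and since the strand setting of the counting was not stated, reads of these genes may be shared. Dlx6 had 4.01, 4.45 and 2.42 against 0.410, 0.611 and 0.544 (-1.98) and Dlx5 2.28, 2.32 and 1.56 against 0.384, 0.333 and 0.366 (-1.55). Dlx6 kept its call only in the fit without female 3, and Dlx5 lost it without female 1 or 2 or male 1 or 2 (limma adjusted p of up to 0.136 and 0.0899). Of 13 genital tubercle and erectile mesenchyme genes, these were the 2 called, both lower, and the list median was -0.24, or -0.0938 without male 1 and -0.162 without male 2.

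Among 24 T-box and other mesenchymal transcription factors 1 was called higher and 3 lower. Tbx15 (0.91) was the member called higher, and Meis1 (-0.42), a cofactor of Hox proteins, was called lower beside Dlx5 and Dlx6. Tbx15 lost its call without female 1, 2 or 3 or male 2 and Meis1 without female 1 or 2 or male 1 or 2 (limma adjusted p of up to 0.077 and 0.0795).

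Wolffian duct and Hox genes. Of 11 tested genes of the Wolffian duct and seminal vesicle, 3 were called higher and 1 lower. Wnt9b, the ligand of Wolffian epithelium, was at 0.0381, 0.0417 and 0.0660 in females and at 1.19, 1.10 and 1.24 in males (1.61, SE 0.14, limma adjusted p = 9.05e-05). Tfcp2l1, a factor of duct epithelium, was at 0.783, 0.976 and 0.725 against 3.76, 3.17 and 3.38 (1.57, limma adjusted p = 0.00736), and Gata3 was the remaining member called higher. Sall1, a zinc-finger factor, ran the other way at 9.40, 8.20 and 7.95 in females and 2.02, 1.91 and 3.30 in males (-1.66, SE 0.24, limma adjusted p = 0.00346). The duct marker Pax2 was at 0.130 to 0.185 in all 6 libraries and did not enter the tests.

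Of 13 posterior Hox genes 2 were called, both higher: Hoxb9, at 1.33, 0.786 and 1.54 in females and 5.71, 5.4 and 3.42 in males (1.64, SE 0.23, limma adjusted p = 0.00354), and Hoxd9 (0.82). Hoxd8 (0.61) was the 1 called of 9 anterior and central Hox genes. The antisense RNA Hoxd3os1 (0.78, called higher) overlaps Hoxd8 and lies beside Hoxd9, so reads of Hoxd8 and Hoxd3os1 may be shared if strand was not used. Each of the 3 lost its call without female 1, 2 or 3 or male 1 or 2 (limma adjusted p of up to 0.142, 0.0754 and 0.195). Hoxd10, Hoxd11, Hoxd12 and Hoxd13 had values of -0.13 to -0.03, none called.

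Promoter sequences are shown for 4 genes that differ in direction: Fkbp5 and Cnmd, called higher in males, and Wnt7a and Krt13, called lower. They are the 250 bases before the annotated start, 5′ to 3′ on the strand of the gene, from RefSeq on GRCm38.p6. This build is not the mm39 of the gene positions above. All 4 genes lie on the minus strand: Fkbp5 at chr17:28486150-28486399, Cnmd at chr14:79662184-79662433, Wnt7a at chr6:91411354-91411603 and Krt13 at chr11:100121567-100121816. Capitals mark AGAACA, searched on both strands, a half-site that steroid receptors of the glucocorticoid class bind.
Fkbp5: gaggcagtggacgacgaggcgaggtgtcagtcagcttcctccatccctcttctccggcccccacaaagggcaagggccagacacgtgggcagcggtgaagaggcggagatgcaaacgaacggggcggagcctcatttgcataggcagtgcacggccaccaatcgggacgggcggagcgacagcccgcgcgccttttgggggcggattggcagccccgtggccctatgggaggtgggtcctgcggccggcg
Cnmd: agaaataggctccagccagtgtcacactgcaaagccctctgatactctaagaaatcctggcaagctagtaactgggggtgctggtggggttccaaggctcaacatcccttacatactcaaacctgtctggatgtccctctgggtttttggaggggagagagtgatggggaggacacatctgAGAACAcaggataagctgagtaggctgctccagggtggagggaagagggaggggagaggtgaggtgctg
Wnt7a: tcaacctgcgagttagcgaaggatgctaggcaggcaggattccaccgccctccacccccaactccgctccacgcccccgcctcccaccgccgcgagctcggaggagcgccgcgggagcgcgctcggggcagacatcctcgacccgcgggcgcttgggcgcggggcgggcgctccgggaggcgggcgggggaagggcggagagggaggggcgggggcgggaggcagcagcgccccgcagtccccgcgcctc
Krt13: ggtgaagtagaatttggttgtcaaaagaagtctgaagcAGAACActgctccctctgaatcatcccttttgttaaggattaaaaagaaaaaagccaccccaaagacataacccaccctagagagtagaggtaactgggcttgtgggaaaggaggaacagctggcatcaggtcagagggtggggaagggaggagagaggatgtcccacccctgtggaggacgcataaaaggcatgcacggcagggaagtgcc
Cnmd holds 1 match that starts 69 bases before the gene's start and Krt13 holds 1 at 212 bases, while Fkbp5 and Wnt7a hold 0. The 4 come from a larger set of windows of named genes, in which only Cnmd and Krt13 held a match. The sequences shown thus overstate how often a match occurs in that set. Wnt7a has the window richest in G and C of the 4, at 77.6%, against 68% for Fkbp5, 54% for Cnmd and 50.4% for Krt13. A match was found in 11.8% of the windows of genes called higher (23 of 195 with a window) and in 13.3% of those called lower (15 of 113). The share was 10% over the 10169 tested autosomal genes with a window and 16.1% over the 25748 autosomal windows of this length that were searched. These windows do not cover every autosome, and some called genes had none. The presence or absence of these letters in a short window is a description of sequence alone.

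Retinoic acid. Of 15 tested genes of the retinoic acid pathway, 3 were called higher in males and 2 lower. The enzymes Aldh1a1 and Aldh1a3 were higher in males and the binding protein Crabp1 was lower, while the enzyme Aldh1a2 and the receptors were not called. The list median was -0.18, and it was -0.0969 without female 2 and -0.105 without male 1. Aldh1a1 and Aldh1a3 are retinaldehyde dehydrogenases, which make the acid. Aldh1a1 (ENSMUSG00000053279, chromosome 19, 20470079 to 20620829 in mm39) was at 2.11, 2.65 and 3.13 in females and 22.4, 24.3 and 35.6 in males (3.14, SE 0.23, limma adjusted p = 3.24e-05). Aldh1a3 was at 8.90, 6.76 and 8.10 in females and 44.9, 42.0 and 40.3 in males (2.36, SE 0.335, limma adjusted p = 0.00346). Every male library held several times the level of the highest female library.

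The other dehydrogenase, Aldh1a2, was the highest of the 3 enzymes in females, at 43.9 to 51.5, and was at 50.9 to 58.9 in males (0.23, limma adjusted p = 0.666). Cyp26a1, which breaks retinoic acid down, was at 0.577, 0.228 and 0.777 in females and 2.25, 1.84 and 2.91 in males (1.48, limma adjusted p = 0.00581). Crabp1, which binds retinoic acid in the cytoplasm, was at 74.5, 89.9 and 77.1 in females and at 10.8, 8.41 and 16.4 in males (-2.76, SE 0.19, limma adjusted p = 2.12e-05). Its relative Crabp2 was called lower (-0.86) but kept the call only in the fit without male 3 (limma adjusted p of up to 0.171). The receptors Rara, Rarb and Rarg had -0.18, -0.28 and -0.36 and none was called.

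Wnt, FGF, hedgehog and BMP signals. Different Wnt ligands were higher in each sex. Of 16 tested ligands and R-spondins, 3 were called higher in males, Wnt16, Wnt9b and Rspo3, and 3 lower, Wnt7a, Rspo2 and Wnt5b. The R-spondins amplify Wnt signalling by stabilising its receptors. Rspo3 was at 4.98, 5.61 and 6.72 in females and 19.1, 15.6 and 16.8 in males (1.5, SE 0.12, limma adjusted p = 8.39e-05), while its relative Rspo2 was at 2.29, 2.48 and 2.72 against 1.11, 1.05 and 1.21 (-0.88, limma adjusted p = 0.0319). Rspo2 kept its call only in the fit without male 3 (limma adjusted p of up to 0.128). Wnt5b (-0.66) lost its call without female 2 (0.0501), and Wnt16 without female 1, 2 or 3 or male 2 (up to 0.0685). Wnt16 was spread widely within males, at 1.67, 4.42 and 7.75, against 0.560 to 0.628 in females (2.03, SE 0.37, limma adjusted p = 0.0142).

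Of 11 secreted Wnt inhibitors, Wif1 was called higher and Dkk2 lower. Dkk2, which binds the Wnt co-receptors, was at 46.3, 47.0 and 45.7 in females and at 16.9, 15.8 and 14.8 in males (-1.52, SE 0.24, limma adjusted p = 0.00656). Of 15 Wnt response genes 1 was called, the Wnt feedback inhibitor Nkd2, lower in males (-0.73); with the FPKM as deposited it was not called (limma adjusted p = 0.135).

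Of 22 genes of the FGF pathway 4 were called higher in males and 0 lower. Etv4, a transcription factor induced by FGF signalling, was at 2.66, 3.13 and 3.02 in females and 5.34, 5.52 and 6.69 in males (0.88, SE 0.13, limma adjusted p = 0.00422). Fgf12 (1.31), an intracellular relative of the FGF ligands, kept its call without each library in turn. The receptor Fgfr4 (0.64) kept it only in the fit without male 1, and the phosphatase Dusp6 (0.38), a feedback inhibitor, lost it without any 1 of the 6 (limma adjusted p of up to 0.132 and 0.192). Fgf10, the mesenchymal ligand needed for prostate budding, overlapped at 2.34 to 3.32 and 2.42 to 3.85 (0.05, 95% interval -0.37 to 0.479).

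Of 17 hedgehog pathway genes, limma called 0 over the 12 libraries, and 5 had a positive difference with an unadjusted p under 0.05. The members ran in both directions, with 8 of the 17 above 0, 7 wholly higher in males and 4, Gli2, Gli3, Sufu and Gas1, wholly higher in females. Over all autosomal genes 17.0% lay wholly higher in males and 14.5% in females. The median of the 17 was -0.06, and it was above 0 without female 3 (0.04) or male 1 (0.05). The ligand Shh, which sinus epithelium secretes, was at 2.38, 2.34 and 3.89 in females and 4.32, 4.41 and 5.78 in males (0.68, 95% interval 0.193 to 1.17, limma adjusted p = 0.136). Its transcriptional targets Gli1 and Hhip also lay wholly higher in males, at 4.9 to 6 against 3.18 to 3.44 and at 7.47 to 8.80 against 3.35 to 5.02. With the 6 wild type libraries alone, Gli1, Hhip and Ptch1 were called higher (limma adjusted p of 0.0084, 0.0104 and 0.0496), and Shh was not (0.0684). Those 3 targets were chosen after their values were seen.

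Of 28 BMP genes 1 was called higher and 2 lower. Fst, which binds activins and BMPs, was at 9.21, 9.86 and 8.63 in females and 14.5, 17.4 and 19.1 in males (0.84, SE 0.12, limma adjusted p = 0.00401). The BMP antagonist Grem1 was at 1.48, 1.73 and 1.82 against 0.440, 0.311 and 0.398 (-1.30, SE 0.16, limma adjusted p = 0.00149). It passed the filter only through the 3 wild type females, where it was high, so its call depends in part on that selection. Without any 1 of them it was not tested. The ligand Gdf5 (-1.03) lost its call without female 1 or 2 or male 1 or 2 (limma adjusted p of up to 0.0874). Bmp4, a mesenchymal ligand that restrains prostate budding, was at 27.6 to 35.2 and 27.2 to 30.4 (-0.06, 95% interval -0.81 to 0.682). Of 10 IGF genes 2 were called, the binding proteins Igfbp6 (1.63) and Igfbp2 (0.83), both higher. The list median was -0.07. Of the 10, 2 lay wholly higher in males and 4 in females, against 17.0% and 14.5% of all autosomal genes. The 6 wild type libraries alone gave 2 calls higher and 2 lower, where 5.10% and 3.84% of all autosomal genes were called. Igfbp6 lost its call without female 1 or 3 or male 2, and Igfbp2 without any 1 of the 6 (limma adjusted p of up to 0.0767 and 0.172). Of 18 TGF-beta genes 2 were called higher, Fst and Mstn, and 0 lower. Here 3 lay wholly higher in males and 6 in females, and the 6 wild type libraries alone gave 2 calls higher and 3 lower. Of 16 Notch genes limma called 0, 2 at an unadjusted p under 0.05 and 1 with the 6 wild type libraries alone.

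**Figure D3:**
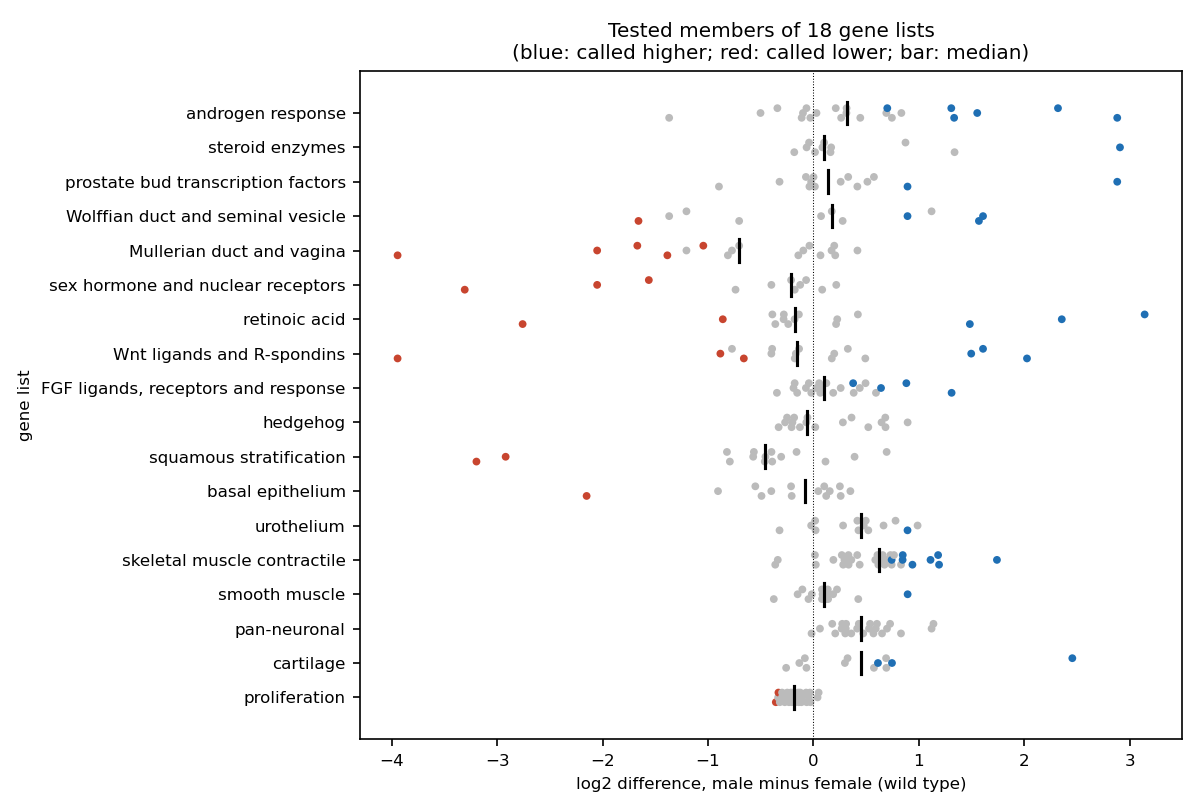
Log2 difference, males minus females, for each tested member of 18 gene lists, 1 dot per gene; blue dots are called higher, red dots called lower, grey dots not called, and black bars are list medians. The skeletal muscle, pan-neuronal and urothelium dots lie mostly right of 0, red dots reach furthest left in the Müllerian and Wnt ligand lists, which share Wnt7a, and the retinoic acid list holds called genes on both sides.

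Epithelium. Genes of stratified squamous epithelium, such as lines the vagina, included some of the largest differences in favour of females. Of 15 tested members 2 were called lower in males and 0 higher, with a median of -0.46. Krt13, a keratin of non-cornified stratified epithelium, was at 40.4, 31.1 and 22.5 in females and 1.52, 2.18 and 6.65 in males (-3.20, SE 0.55, limma adjusted p = 0.00989). Krt6a, a keratin of the same layers whose close copy Krt6b can share reads, was at 26.3, 20.5 and 19.2 against 1.73, 1.60 and 4.95 (-2.92, SE 0.45, limma adjusted p = 0.00603). Male 3 held the most of both among males, and the sexes did not overlap. Krt4, the usual partner of Krt13, was at 202, 200.3 and 216 in females and 113, 121 and 198 in males (-0.56, limma adjusted p = 0.257).

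Of 14 basal epithelium genes 1 was called, Krt17, lower at 5.87, 7.19 and 10.8 in males against 39.6, 35.7 and 32.9 (-2.15, SE 0.37, limma adjusted p = 0.0101). Krt5 overlapped at 31.6 to 43.7 and 17.4 to 36.9 (-0.55, 95% interval -1.22 to 0.121). Krt13 lost its call without female 1 or male 2, and Krt17 without female 1, male 1 or male 2 (limma adjusted p of up to 0.057 and 0.0558). Dsc3, a desmosomal cadherin of stratified epithelia, was at 9.84, 9.60 and 11.3 in females and 0.493, 0.669 and 0.657 in males (-3.28, SE 0.21, limma adjusted p = 8.50e-06), with little spread in either sex.

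Of 14 urothelial genes 1, Gata3, was called higher, and 12 had values above 0. Their median was 0.45, and it was 0.159 without female 2. Upk1b was at 45.7, 31.9 and 72.3 in females and 76.8, 56.6 and 66.2 in males (0.48, 95% interval -0.48 to 1.44), and Upk3a at 29.7, 7.50 and 51.6 against 62.9, 34.3 and 44.0. Female 2 was the lowest library for both. Among 22 genes of simple epithelium and junctions, the claudin Cldn8, of tight junctions in duct epithelia, was the 1 called, at 3.61, 2.73 and 3.25 in females and 17.1, 12.5 and 13.7 in males (2.01, SE 0.22, limma adjusted p = 0.000593). Of 7 glandular genes 1 was called higher, Agr2 (1.17), which helps fold secreted mucins. Agr2 lost the call without female 1 or 2 or male 1 or 2 (limma adjusted p of up to 0.112). Of the 7, 1 lay wholly higher in males and 2 in females, against 17.0% and 14.5% of all autosomal genes. The 6 wild type libraries alone gave 1 call higher and 1 lower, where 5.10% and 3.84% of all autosomal genes were called.

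Outside these lists, the naming rule took Nt5e, which makes adenosine at the cell surface, at 3.87, 4.01 and 3.02 in females and 20.5, 19.8 and 15.1 in males (2.19, SE 0.18, limma adjusted p = 5.90e-05). Cyp1b1, a cytochrome that hydroxylates oestrogens and retinoids, was at 3.73, 4.02 and 3.78 against 17.8, 18.7 and 21.7 (2.19, SE 0.18, limma adjusted p = 9.05e-05). Both were tight within each sex.

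Mmp7, a matrix protease of glandular epithelium, was at 1.04, 0.794 and 0.838 in females and 12.3, 13.1 and 9.99 in males (3.14, SE 0.71, limma adjusted p = 0.038). Its call was lost without any 1 of the 6 wild type libraries (up to 0.142), and the 6 libraries alone gave an adjusted p of 3.32e-05; in mutants, which share the estimate of spread, female 1 held 9.21 against 0.383 and 0.311 in females 2 and 3. Ly6a, of a family of near-identical genes and so uncertain, ranged from 2.76 to 11.5 in females and from 26.5 to 44.4 in males (2.2, limma adjusted p = 0.0265), and lost its call without female 1 or 3 or male 1 or 2 (up to 0.119). Habp2, a serine protease gene, was listed at 0 in females 1 and 2 and at 0.0547 in female 3, and was at 1.71, 2.02 and 2.61 in males (limma adjusted p = 9.05e-05). Of 18 matrix metalloproteinases and inhibitors Mmp7 was the 1 called.

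C1s1, which encodes the complement protease C1s, had the largest fitted difference of the autosomal genes called higher in males, but it sits beside near-identical copies. It was listed at 0 in females 1 and 2 and at 0.0114 in female 3, and was at 8.58, 4.45 and 2.50 in males (limma adjusted p = 0.000179). Its neighbour C1ra, at 0.454, 0.390 and 0.411 against 2.82, 1.69 and 0.608, and the copy C1rb, at 2.61, 3.39 and 2.13 against 0.0337, 1.38 and 0.746, were not called (limma adjusted p = 0.0792 and 0.106). C1rb ran in the direction opposite to C1s1 and C1ra in these libraries. The counting could have split reads among these copies, and whether it did was not tested.

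Muscle, nerve and skeleton-related tissue. Striated muscle forms the urethral sphincter of both sexes. Of 32 tested contractile genes 8 were called higher and 0 lower, at a median of 0.62. In the list 19 lay wholly higher in males and 0 wholly higher in females, against 17.0% and 14.5% of all autosomal genes. Myoz1, a Z-disc protein, was at 1.18, 0.439 and 0.874 in females and 4.06, 5.17 and 2.63 in males (1.74, SE 0.32, limma adjusted p = 0.0145). The fast troponin Tnnt3 was at 39.2, 28.6 and 34.7 against 64.6, 97.9 and 75.2 (1.19, SE 0.22, limma adjusted p = 0.0131). Myh8, the perinatal myosin, was at 38.6, 26.5 and 30.3 against 65.4, 75.7 and 75.2 (1.18, SE 0.21, limma adjusted p = 0.0111). Female 2 was the lowest female for all 3 genes.

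Further called members were Tnnc2 (1.11), Tnni2 (0.94), Ampd1 (0.85), Atp2a1 (0.85) and Xirp1 (0.74), genes of troponin, nucleotide metabolism, the calcium pump and the sarcomere. The summed level of the list was 1313, 1006 and 1221 in females 1 to 3 and 1456, 1952 and 2089 in males 1 to 3. The fit without male 2 called 1 gene of the list, that without female 2 called 2 and that without female 3 called 5, and the other 3 such fits called 7 each; the medians ran from 0.52 to 0.70. The slow-fibre genes Myh7, Tnnc1 and Tnnt1 had -0.36, 0.01 and 0.02, none called. Of 13 myogenic regulators 2 were called higher, Mstn (1.47), the TGF-beta family restraint on muscle growth, at 1.42 to 1.44 in females and 3.35, 5.84 and 5.68 in males, and Myf6 (0.76), which kept its call only in the fit without male 1 (limma adjusted p of up to 0.164). Of 17 smooth muscle genes 1 was called higher, Casq2 (0.89), a calcium store protein that striated muscle also holds. Casq2 lost the call without female 1, 2 or 3 or male 2 (limma adjusted p of up to 0.101). Acta2, the main smooth muscle actin, overlapped at 529 to 573 and 491 to 711. The smooth muscle marker Myh11 was not called but lay wholly higher in females, at 86.4 to 104.3 against 62.9 to 80.3. In the list 3 genes lay wholly higher in males and 1 in females, against 17.0% and 14.5% of all autosomal genes.

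Pan-neuronal genes had positive values but were not called over the 12 libraries. Of 24 tested pan-neuronal genes 23 had values above 0, with a median of 0.45. Limma called 0, with 2 at an unadjusted p under 0.05. With the 6 wild type libraries alone it called 12 higher and 0 lower, against 5.10% and 3.84% of all autosomal genes. The summed level of the list was 624, 596.5 and 751 in females and 973, 881 and 940.1 in males. Syn2, a synaptic vesicle protein, was at 4.53, 3.90 and 5.16 in females and 12.4, 8.45 and 11.1 in males (1.14, limma adjusted p = 0.189, and 0.00553 with the 6 libraries alone). For 15 of the 24 the libraries lay wholly higher in males and for 0 wholly higher in females, against 17.0% and 14.5% of all autosomal genes.

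Of 25 autonomic genes 2 were called higher in males and 0 lower. With the 6 wild type libraries alone the counts were 9 and 0, against 5.10% and 3.84% of all autosomal genes. Artn, a GDNF-family factor for sympathetic neurons, was at 1.39, 1.23 and 0.980 in females and 4.11, 3.59 and 2.52 in males (1.19, SE 0.19, limma adjusted p = 0.00615). Slc6a2, the noradrenaline transporter, had 0.99 and kept its call only in the fit without male 3 (limma adjusted p of up to 0.14). Th, which makes the transmitter's precursor, overlapped at 11.9 to 18.1 and 14.3 to 17.6 (0.03, limma adjusted p = 0.981). Vip, a neuropeptide of pelvic ganglia, was at 10.6 to 12.3 against 23.7 to 31.4 (1.27, limma adjusted p = 0.428, and 0.00148 with the 6 libraries alone).

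Of 12 cartilage genes 3 were called higher, Cnmd, Col9a3 and Matn4. Cnmd, a vessel-repelling membrane protein of cartilage and tendon (ENSMUSG00000022025, chromosome 14, 79875130 to 79899610 in mm39), was at 0.163, 0.341 and 0.301 in females and 3.88, 3.58 and 3.62 in males (2.46, SE 0.13, limma adjusted p = 1.77e-06). Of other members, none of them called, the main cartilage collagen Col2a1 was at 0.388 to 1.54 and the proteoglycan Acan at 0.118 to 1.35 over the 6 libraries, while the minor collagens Col9a2 and Col11a1 were at 20.3 to 25.1 and 8.13 to 10.6 and overlapped between the sexes. Col9a3 (0.75) lost its call without female 1, female 2 or male 2, and Matn4 (0.61) without any 1 of the 6 (limma adjusted p of up to 0.0778 and 0.13).

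Of 10 small leucine-rich proteoglycans of the matrix 2 were called higher. Aspn was at 11.3, 12.6 and 11.6 in females and 43.4, 49.6 and 32.3 in males (1.76, SE 0.27, limma adjusted p = 0.00535), and Epyc at 0.943, 1.22 and 1.04 against 5.54, 4.05 and 3.23 (1.58, SE 0.26, limma adjusted p = 0.00729). Male 3 was the lowest male for both. Among 29 genes of fibroblasts and matrix limma called 0, with 4 at an unadjusted p under 0.05. With the 6 wild type libraries alone it called 1 higher and 5 lower, against 5.10% and 3.84% of all autosomal genes.

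**Figure D4:**
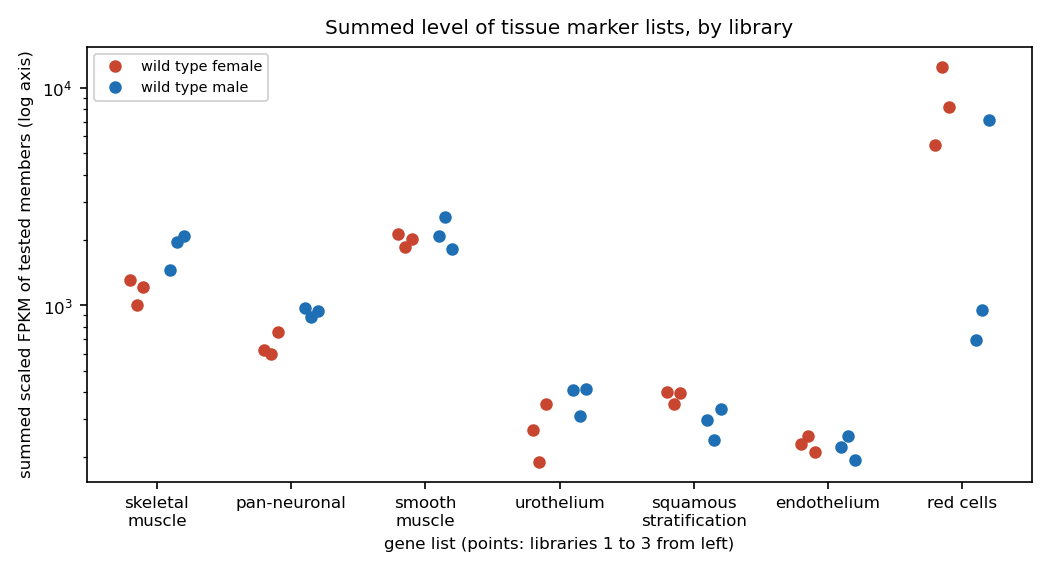
Summed scaled FPKM of the tested members of 7 tissue marker lists on a log axis, 1 dot per wild type library in the order 1 to 3 from left. The male dots of the skeletal muscle and pan-neuronal lists lie above all female dots, the smooth muscle and endothelium dots overlap between the sexes, and male 3 sits with the females for red cells.

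Growth and housekeeping genes. Of 30 proliferation genes 0 were called higher and 2 lower in males, at a median of -0.18, with 28 of the 30 below 0. Mki67, a protein of dividing nuclei, was at 49.6, 43.7 and 43.7 in females and 38.2, 36.0 and 32.5 in males (-0.36, SE 0.09, limma adjusted p = 0.0489), and the mitotic kinase Aurka at 12.3 to 12.8 against 9.61 to 10.4 (-0.33, limma adjusted p = 0.0444). These calls were slight: Mki67 lost its call without any 1 of the 6 libraries and Aurka kept it only in the fit without male 3 (limma adjusted p of up to 0.211 and 0.171). Of the 30, limma called 0 with the FPKM as deposited, scaled to library sums, with no filter or without any 1 library but male 3. It called 7 lower with the 6 wild type libraries alone, against 3.84% of all autosomal genes. Limma called 0 in the lists of ribosomal proteins (30 genes), oxidative phosphorylation (21), cholesterol synthesis (17), immediate early genes (19), hypoxia (14), red cells (6), macrophages and other immune cells (22), Schwann cells and glia (12), adipose tissue (8), mesothelium (7), intestine (2), gonad and adrenal (3) and kidney (3). Of these 164 genes in 13 lists, 4 higher and 26 lower had an unadjusted p under 0.05, a count given without its share over all autosomal genes. The 26 included 8 of the 30 ribosomal protein genes, all 6 red cell genes and 4 of the 14 hypoxia genes. The ribosomal protein list had a median of -0.22, with 1 of the 30 above 0. In it 10 lay wholly higher in females and 0 in males, against 14.5% and 17.0% of all autosomal genes. With the 6 wild type libraries alone, 1 of the 164 was called higher and 5 lower, against 5.10% and 3.84% of all autosomal genes. Without male 3, 5 of the 6 red cell genes and 2 of the 14 hypoxia genes were called lower in males; Hba-a2, of the near-identical alpha-globin pair, was at 358, 1729 and 71.5 in females and 49.0, 60.2 and 17.98 in males.

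Sex differences in mutants. The 6 mutant libraries are separate from the wild type libraries, although both comparisons use 1 estimate of spread. In mutants 524 autosomal genes were called higher in males (3.90%) and 479 lower (3.57%), together 7.47%. Of the 418 genes called in wild type, 406 (97.1%) had the same sign in mutants, where 64.3% of all autosomal genes did, and 270 were called in the same direction, which is 64.6% of the wild type calls and 26.9% of the 1003 mutant calls. The median size was 0.84 in wild type and 0.69 in mutants in the wild type direction. The genes were chosen by their wild type difference, which tends to raise the wild type median, so the 2 medians are not on equal terms. Esr1 had -3.16 in mutants, Wnt7a -4.31, Aldh1a1 3.50, Cnmd 2.92 and Fkbp5 1.99, all called.

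The skeletal muscle list had a median of 0.62 in wild type and of 0.09 in mutants, where 0 members were called higher and 2 lower. Mstn was at 2.3 to 2.62 in mutant females and 1.31 to 2.58 in mutant males (-0.41), and Myoz1 had -0.10. C1s1 was at 2.79 to 3.06 in mutant females and 2.2 to 3.5 in mutant males, with no separation of the sexes. The pan-neuronal median was 0.45 in wild type and 1.21 in mutants, where 0 members were called higher and 0 lower. Tested directly, the sex difference was called different between the genotypes for 0 autosomal genes by limma; 8.69% of them (1166) had an unadjusted p under 0.05, and the smallest adjusted p was 0.0908, for C1s1. The adjusted p of the difference was 0.295 for Mstn and 0.538 for Myoz1.

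**Figure D5:**
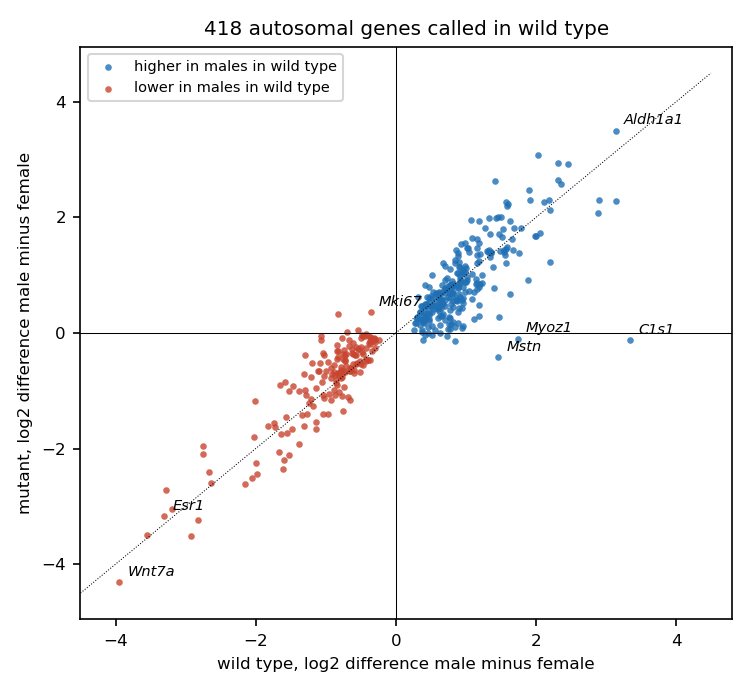
Log2 sex difference (males minus females) in mutants against that in wild type for the 418 genes called in wild type; the dotted line marks equality. Most points (406) share their sign; C1s1, Myoz1 and Mstn lie near or below 0 in mutants, and Mki67 is the 1 gene called in opposite directions.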

How the data were processed

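RNA of 12 urogenital sinus libraries (ribosomal RNA removed, stranded kit, single-end reads, per the labels' protocols) had been summarised by the authors as FPKM per gene, deposited as 1 Cufflinks table for all libraries. The submitters' processing notes name Cufflinks 2.2.1, bedtools 2.30.0, STAR 2.7.10a and cutadapt 4.1, and mm39 and mm10, without their roles; gene positions in the table are those of mm39. The annotation and the strand setting are not given in the sources used here. Depth in reads is not in the table, and FPKM give no counting interval.

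The deposited FPKM were divided by median-ratio factors (0.98 to 1.131 in wild type). Every gene that reached 1 FPKM in 3 or more libraries entered the test, as log2(scaled FPKM + 0.5) with limma 3.58.1 in R 4.3.3, with 4 group means over the 12 libraries, 8 residual degrees of freedom, an intensity trend and Benjamini-Hochberg adjustment over 13904 genes at 0.05. The script was tested on simulated data.

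Genes are named by a rule. It takes the 12 highest and 12 lowest called autosomal genes whose libraries do not overlap and whose higher mean is at least 2 scaled FPKM, without predicted genes, pseudogenes and short RNAs. It adds up to 4 called members per list by size, a fixed set of regulators and receptors, Xist and Y genes as sex checks, and the 5 genes with the smallest p for a difference between the genotypes. Other genes were named after their values were seen, and some that the rule names are not reported here. The 49 lists and the members were chosen with earlier results of these data known. Alternatives were other pseudocounts, filters and scalings, the 6 wild type libraries alone, the replicate number as a block, no trend, GC and length as covariates (found for 98.78% of genes), and each library left out.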

Additional observations from a re-analysis of the deposited data

Results flagged for a closer look

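The named genes include 5 taken for the smallest p of a difference between the genotypes, so the pattern given here was part of their choice. For 3 of those 5 the wild type libraries of the sexes did not overlap, the mutant libraries did not overlap either, and the order of the sexes was opposite in the 2 genotypes. Bod1l, a protein that protects stalled replication forks, had a log2 sex difference (males minus females) of -0.21 in wild type, with females at 9.77 to 10.01 scaled FPKM and males at 8.27 to 8.74, and of 0.36 in mutants. Bptf, the large subunit of the NURF chromatin remodeller, had -0.22 in wild type and 0.31 in mutants. Mki67, of dividing nuclei, had -0.36 and 0.37. The difference between the genotypes was tested by limma and did not pass for any of them (adjusted p = 0.183 for Bod1l, 0.295 for Bptf and 0.295 for Mki67).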

How the results depend on the processing

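None of the 418 calls was called in the opposite direction under the alternatives run here, and no named gene changed sign past its call. The counts of 255 higher and 163 lower stayed within 1.5 times with pseudocounts of 0.1 and 1, no filter, scaling to library sums, no trend and GC and length as covariates. The genes turned over more than the counts: the fit with no filter shared 244 of the 418 calls and lost 15 of the 72 called named genes, and the FPKM as deposited shared 226 and lost 11. The counts were 130 and 98 with a filter at 5 FPKM (fewer genes tested), 166 and 69 with the FPKM as deposited (70.6% higher against 61%), 665 and 501 with the 6 wild type libraries alone, and 97 to 298 and 52 to 296 without 1 library. Without male 3, 50.2% of calls were higher. Scaling to library sums without Rn7sk, chosen after seeing the data, gave 356 and 115 (75.6% higher); it moved the median of all genes to 0.0952. Other than by construction, the cause was not tested. The count of 0 genes that differed between genotypes became 1 with a pseudocount of 0.1 and with the FPKM as deposited, 8 with no filter, and 0 to 1 without 1 library (1 without male 1 or male 3). With the replicate number as a block 150 genes were called higher and 90 lower, and 16 of the 72 named autosomal genes that were called lost their call. Same-numbered wild type libraries had correlations of deviations of -0.00571, 0.0947 and 0.317, the last being the highest between any female and male. Female 1 correlated best with male 2 and female 2 with male 1 (0.127 and 0.231). With 3 libraries per sex, these values do not settle whether the numbers pair the libraries. Depth in reads is unknown, so a gene listed at 0 is not shown to be absent.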

Other observations

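The genes given here were picked from those called with a difference of at least 2-fold, after their values were seen, and stand for no group. Clu, a secreted chaperone, had scaled FPKM of 16.2, 15.7 and 10.97 in the females and 75.3, 69.9 and 46.5 in the males of wild type, and no library of 1 sex reached the other (log2 difference, males minus females, 2.11, limma adjusted p = 0.00212). The glutathione transferase Gsta3 had 2.06 and Papss2, which makes the sulfate donor used by sulfotransferases, 1.35. The phenol sulfotransferase Sult1a1 had 1.36 and lost its call without female 1 or male 2 (limma adjusted p of up to 0.0573). The glutathione peroxidase Gpx2 had 1.89 and lost it without female 2 (0.0501). The carbohydrate sulfotransferase Chst9 (-1.34) and the sulfide oxidase Sqor (-1.48) were lower in males, and Chst9 lost its call without female 1 or male 2 (limma adjusted p of up to 0.0665).

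Penk, the enkephalin precursor, was at 57.9, 70.8 and 57.0 in females and 138, 136 and 139.9 in males (1.16), and lost its call without female 1 (limma adjusted p = 0.0558). The peptide genes Grp and Sct had 1.34 and 1.41, and the peptide receptors Glp2r and Trhr 1.43 and 1.47. Grp, Sct and Glp2r were called in each fit without 1 library, and Trhr in the 5 of these 6 fits that tested it. Trhr passed the filter only through male libraries, where it was high, so its call depends in part on that selection. Lower in males were Mycn, a growth-promoting transcription factor, at 11.9, 12.1 and 12.9 in females and 4.496, 4.501 and 4.95 in males (-1.31, limma adjusted p = 0.0013), the anion exchanger Slc26a7 (-2.02), and the neighbouring claudins Cldn6 (-1.18) and Cldn9 (-1.14). The interferon-induced genes Isg15 (-1.07) and Bst2 (-1.06) were called in wild type and had -0.13 and -0.04 in mutants; Isg15 lost its call without female 1 (0.0518), and Bst2 in 5 of 6 fits without 1 library (up to 0.151).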
